A study of Mus musculus with 18 samples.

Results

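Chromatin accessibility at the genes of the MAP kinase cascade was examined in mouse bone-marrow derived macrophages (BMDM) by ATAC-seq, in which a transposase cuts and tags DNA that nucleosomes leave open. The members were the accessible regions of the deposited table whose nearest protein-coding gene, within 50 kb of the region's centre, had a symbol beginning with Map4k, Map3k, Map2k, Mapk or Mapkapk followed by a number. They came to 227 of 53796 regions and belonged to 45 of the 13767 genes with a region. Another 7 genes of the reference matched the names and had no region: Map3k10, Map4k1, Mapk4, Mapk10, Mapk11, Mapk13 and Mapk15. Which gene a region regulates cannot be read from its nearest gene, and 32 of the 227 regions had a second gene within 10 kb.

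All cells were from wildtype C57BL/6 mice aged 6 to 12 weeks, were grown from bone marrow with M-CSF at 20 ng/mL, and were replated on day 7. Every group received a first treatment for 4 hours and a second for 4 hours, in fresh medium. In 5 groups the first treatment was medium, and the second was medium (the medium group), CpG DNA (100 nM), LPS (1 ng/mL), polyI:C (1 µg/mL) or TNF (10 ng/mL), called here CpG alone, LPS alone, polyI:C alone and TNF alone. In the other 4 groups the sequence was CpG then LPS, polyI:C then LPS, CpG then TNF, or polyI:C then TNF, at the same doses. CpG DNA, LPS and polyI:C are microbial mimics or products sensed by the Toll-like receptors TLR9, TLR4 and TLR3, and TNF is a cytokine that the macrophages themselves release. Nuclei were tagged for 30 minutes at 37 °C. Each of the 9 groups had 2 libraries, and since the labels do not say whether these came from different mice or cultures, the p-values measure the spread between libraries, which may be technical.

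In the cascade a signal passes through kinases that phosphorylate one another in order: MAP4K enzymes act on MAP3K enzymes, these on MAP2K enzymes, and these on the MAP kinases ERK, JNK and p38, which in turn activate MAPKAPK enzymes and transcription factors such as AP-1. In macrophages the cascade is known for relaying Toll-like receptor and TNF receptor signals within minutes, and for controlling the synthesis and mRNA stability of inflammatory cytokines. What was measured here is the openness of DNA near the genes that encode these enzymes, not the amount or activity of the enzymes.

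Libraries held 3141641 to 5986835 reads in regions, and the median member region held 59.5 reads per library at the median, with a range over regions of 8 to 606. The libraries of polyI:C alone differed by no more than counting noise (chi-square per region 1.004, p = 0.278) and were counted as 1 sample. The libraries of polyI:C then TNF stood apart from each other, with a chi-square per region of 2.715. Their correlation across regions was 0.919, against 0.958 to 0.973 in the other groups. Many of their results are therefore given with and without each library. Where no such values stand beside a polyI:C then TNF result, it is given for both libraries only. Of 9 macrophage marker genes, 9 had regions (59 regions, with group means of 3.501 to 3.955 log2 CPM). Regions also lay near markers of other cells: 4 of 8 genes of T and NK cells, 2 of 6 of B cells, 5 of 6 of neutrophils, 5 of 5 of dendritic cells, 3 of 5 of erythroid cells and progenitors, and 3 of 6 of stroma and endothelium, while Cd3e, Elane, Gata1 and Col1a1 had none. In bulk chromatin, fewer cells with an open region and less opening per cell cannot be told apart.

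The 227 regions span 501 bases each, so their levels can be compared, and were spread over 18 chromosomes with 1 to 18 regions per gene (median 3). By role they fell to 4 MAP4K genes (24 regions), 17 MAP3K genes (86 regions), 7 MAP2K genes (44 regions), 8 MAP kinase genes (28 regions), 3 MAPKAPK genes (28 regions) and 6 genes that share the name pattern without being kinases of the cascade (17 regions). By the position of the centre, 47 were at a gene end (1 kb or less away), 120 deeper inside a gene and 60 between genes. Their median level, 3.68 log2 CPM (reads scaled to library size), was close to that of all regions, 3.67.

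Promoter sequences were matched by symbol in a RefSeq table of build GRCm38.p6, which held 46 promoters of 35 of the 45 genes. Printed here are the 250 bases before the start of 6 genes at which the results below turn or in which a searched motif was found, 5′ to 3′ on the gene's strand. Capitals mark a match, on either strand, to the PU.1 letters GAGGAAGT (Map3k3, Mapkapk2), the AP-1 letters TGANTCA (Map2k6), the GC box GGGCGG (Map3k14, Map3k7, Mapk8) or the NF-kB motif (Map3k7).
Map3k3 (chr11:106084337-106084586, + strand): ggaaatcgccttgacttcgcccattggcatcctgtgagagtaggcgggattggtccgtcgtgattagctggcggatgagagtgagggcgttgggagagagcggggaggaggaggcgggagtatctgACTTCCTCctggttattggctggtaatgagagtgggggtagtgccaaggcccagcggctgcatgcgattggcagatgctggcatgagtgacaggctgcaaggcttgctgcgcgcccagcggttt
Map3k14 (chr11:103267402-103267651, - strand): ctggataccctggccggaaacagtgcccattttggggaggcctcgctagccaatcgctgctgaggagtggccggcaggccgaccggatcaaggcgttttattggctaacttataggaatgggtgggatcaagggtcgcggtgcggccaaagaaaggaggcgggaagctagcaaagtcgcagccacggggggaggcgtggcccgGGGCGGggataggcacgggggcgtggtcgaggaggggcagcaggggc
Map3k7 (chr4:31963857-31964106, + strand): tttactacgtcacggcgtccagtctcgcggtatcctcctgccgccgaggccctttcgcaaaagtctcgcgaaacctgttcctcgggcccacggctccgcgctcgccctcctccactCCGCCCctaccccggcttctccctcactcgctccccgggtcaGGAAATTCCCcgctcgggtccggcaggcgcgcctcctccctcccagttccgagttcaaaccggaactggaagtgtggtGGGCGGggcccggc
Map2k6 (chr11:110398852-110399101, + strand): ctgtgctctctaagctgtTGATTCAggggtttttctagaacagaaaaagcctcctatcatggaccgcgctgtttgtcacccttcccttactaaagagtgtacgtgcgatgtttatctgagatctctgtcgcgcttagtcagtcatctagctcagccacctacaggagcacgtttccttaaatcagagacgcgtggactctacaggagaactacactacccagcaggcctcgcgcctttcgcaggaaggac
Mapk8 (chr14:33447159-33447408, - strand): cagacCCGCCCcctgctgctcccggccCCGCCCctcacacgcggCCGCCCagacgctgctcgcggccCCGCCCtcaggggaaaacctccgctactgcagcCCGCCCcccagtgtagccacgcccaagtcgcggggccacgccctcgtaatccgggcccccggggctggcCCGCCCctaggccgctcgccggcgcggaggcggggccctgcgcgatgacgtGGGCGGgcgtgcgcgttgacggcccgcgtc
Mapkapk2 (chr1:131097844-131098093, - strand): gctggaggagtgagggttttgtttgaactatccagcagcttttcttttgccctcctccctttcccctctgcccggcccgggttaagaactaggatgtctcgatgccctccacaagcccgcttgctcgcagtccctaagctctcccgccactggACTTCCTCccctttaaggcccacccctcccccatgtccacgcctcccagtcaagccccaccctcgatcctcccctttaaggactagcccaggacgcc

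In the 300-base windows of the table, the GC box stood in 65.2% of the member promoters against 35.7% of 32851 promoters in all, and the median GC content was 64.5% against 52.7%. TATAAA was found in 4.35% of member promoters against 13.6% of all. Letters tied to inflammatory factors were in few of either: AP-1 in 4.35% (Map2k6, Map2k7) against 7.81%, the NF-kB motif in 6.52% (Map3k7, Map4k2, Mapk1ip1l) against 4.51%, the interferon response element in 4.35% (Mapk14, Mapkapk3) against 3.44%, and PU.1 in 4.35% against 3.2%. The ETS letters CCGGAAG stood in 6.52% against 8.86%, and the CRE letters TGACGTCA in 0 against 1.79%. GC box and ETS matches can overlap other letters and were searched after the other motifs. A match is a description of letters, and a missing match says only that the letters are not in that window.

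Against the medium group, CpG alone changed 56 of the 227 regions (41 higher, 15 lower; 24.7%), beside 26.0% of all regions (17.2% higher, 8.79% lower). Each such count is of regions with an adjusted p under 0.05 by limma with Benjamini-Hochberg adjustment over all regions. LPS alone changed 38 (30 higher, 8 lower; 16.7%), beside 24.5% of all (15.0% higher, 9.55% lower), and polyI:C alone 41 (29 higher, 12 lower; 18.1%), beside 22.5% (14.3% and 8.28%). TNF alone changed 13 (11 higher, 2 lower; 5.73%), beside 6.36% (5.79% and 0.573%). The shares at the cascade's genes were thus at or below the background in these 4 comparisons, which share the medium libraries. Median differences of the 227 regions were small (0.02, 0.05, 0.01 and −0.01 on the log2 scale, in the same order), beside −0.01 to 0.01 over all regions. Called rises of at least 2-fold numbered 23 with CpG, 17 with LPS, 19 with polyI:C and 7 with TNF, and called falls of that size 2, 0, 3 and 0. With libraries brought to the same distribution, the CpG split was 27 higher and 17 lower (61.4% higher, against 73.2%) and the TNF split 4 higher and 0 lower (100%, against 84.6%); the TNF rises named below at Map4k4, Map3k5 and Map3k8 were then not called. Markers of other cells also moved with the stimuli: of 11 regions of stroma and endothelium genes 6 were higher with CpG (median difference 0.62) and 5 with LPS (0.67), and of 9 of neutrophil genes 4 were higher with either (0.41 and 0.34). Of all regions, 17.2% were higher with CpG and 15.0% with LPS. Other marker lists moved in differing directions with LPS. Of 8 regions of erythroid and progenitor genes 0 were higher and 4 lower (median −0.42). Of 14 regions of T and NK cell genes 0 were higher and 4 lower with LPS (−0.17). Of 19 of dendritic cell genes 6 were higher (31.6%) and 5 lower with LPS, and of 9 of B cell genes 2 (22.2%) and 1. With CpG 7 of the 19 dendritic cell regions were higher (36.8%) and 2 lower. Of the 59 macrophage marker regions 15 were higher (25.4%) and 2 lower with LPS, and 8 (13.6%) and 5 with CpG. The part of these markers in the results was not tested.

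A first stimulus was then compared with medium before the same second stimulus. CpG before LPS changed 37 regions relative to LPS alone (21 higher, 16 lower; 16.3%), beside 15.7% of all regions (9.95% higher, 5.76% lower), and polyI:C before LPS changed 55 (24 higher, 31 lower; 24.2%), beside 22.9% (13.5% and 9.36%). CpG before TNF changed 30 relative to TNF alone (25 higher, 5 lower; 13.2%), beside 16.3% (10.6% and 5.65%), and polyI:C before TNF changed 64 (23 higher, 41 lower; 28.2%), beside 27.7% (15.0% and 12.7%). Among calls over all regions 59.1% were higher in polyI:C before LPS and 54.1% before TNF, or 48.3% and 47.0% with libraries shifted to one median. Among the calls of the 227 regions 43.6% and 35.9% were higher, or 41.1% and 27.9% with the same shift. The difference in split was not tested. Before LPS the members' calls were more often higher without library 1 of LPS alone and more often lower without library 2. Without the variance trend the split before LPS was 29 higher and 24 lower. Before TNF higher and lower calls were nearly even without library 1 of TNF alone, and more often lower without library 2. Fitting only the groups compared gave 38 higher and 40 lower before LPS, and 13 and 15 before TNF. Median differences after polyI:C were −0.04 before LPS and −0.13 before TNF in the 227 regions, and 0.02 and 0.00 in all regions. The polyI:C then TNF count moved with its libraries: without library 1 it was 81 (26 higher, 55 lower; 35.7% beside 35.8% of all), and without library 2 it was 42 (22 higher, 20 lower; 18.5% beside 17.2%). The split after CpG then LPS moved with the scaling, from 21 higher and 16 lower (56.8% higher) to 16 and 20 (44.4%) with one distribution and to 15 and 29 (34.1%) with libraries shifted to one median.

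**Figure D1:**
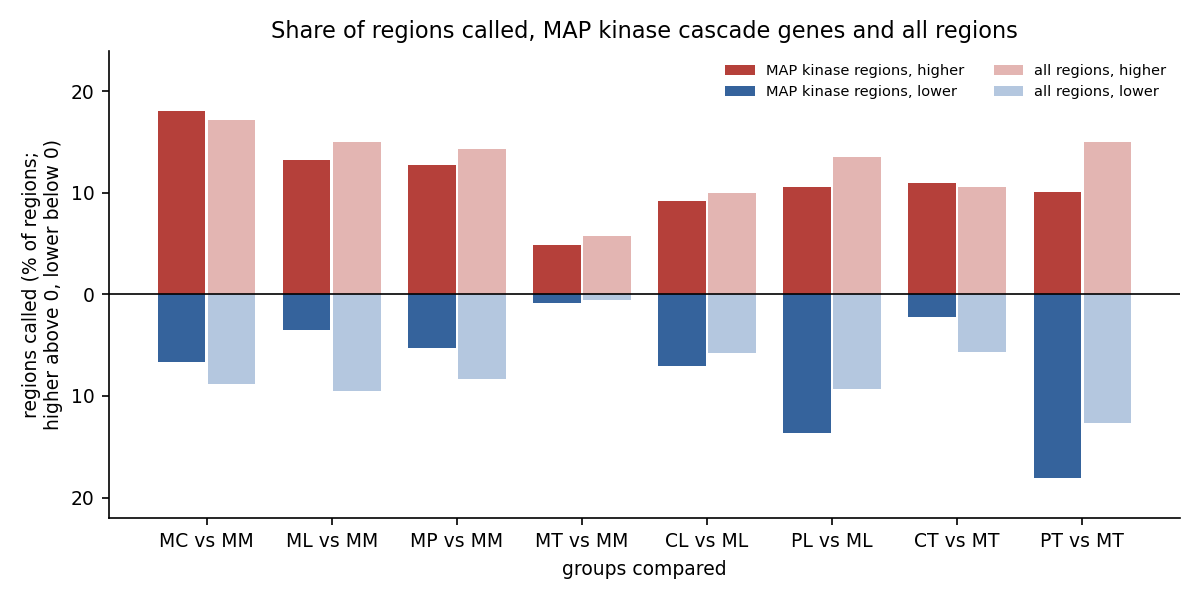
Share of regions called higher (upward bars) and lower (downward bars), in percent, among the 227 regions of MAP kinase cascade genes and among all 53796 regions, for 4 single stimuli against medium and 4 first stimuli against medium before the same second stimulus. The lower bars of the members are longest after polyI:C first (31 regions before LPS, 41 before TNF).

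Over the 8 comparisons, 136 regions (59.9%, beside 62.4% of all regions) were called at least once, and 91 never. Among the 45 genes 36 had a called region. Those without included Map4k2, Map3k13, Map3k21, Map2k5, Mapk8ip1 and Mapk8ip2, and the terminal kinases JNK2 (Mapk9) and ERK5 (Mapk7). Higher with each of the 4 single stimuli were 9 regions (3.96%, beside 3.94%), at Mapkapk2 (3 regions), Map2k6 (2 regions), Map4k3, Map4k4, Map3k5 and Map3k8. Lower with each was 1 region, inside Map3k20 (0.441%, beside 0.264% of all regions). No region rose with 1 single stimulus and fell with another, beside 0.459% of all regions.

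Regions at gene ends were the most open and the least variable. Their median level was 4.21 log2 CPM, against 3.52 inside genes and 3.68 between genes, and the median range of the 9 group means was 0.56, against 0.89 and 0.89. Called shares at gene ends were 10.6% with CpG, 8.51% with LPS, 8.51% with polyI:C and 2.13% with TNF, beside 11.9%, 16.8%, 9.92% and 1.81% of all regions at gene ends. Between genes they were 35.0%, 20.0%, 23.3% and 5.0%, beside 30.5%, 27.2%, 26.6% and 7.9% of all regions between genes. CpG before LPS changed 19 of the 60 regions between genes (13 higher; 31.7%, beside 18.6%), and CpG before TNF changed 13 of them, each higher (21.7%, beside 18.9%). Of the 27 regions that overlapped a RefSeq promoter of their gene, 0 were called with CpG (beside 8.96% of all 7949 such regions), 1 with LPS (3.7%, beside 15.9%), 0 with polyI:C (beside 7.52%) and 1 with TNF (3.7%, beside 1.04%). In the comparisons of CpG then LPS, polyI:C then LPS, CpG then TNF and polyI:C then TNF the counts were 1, 4, 0 and 4, beside 7.5%, 14.4%, 6.52% and 21.5% of such regions.

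**Figure D2:**
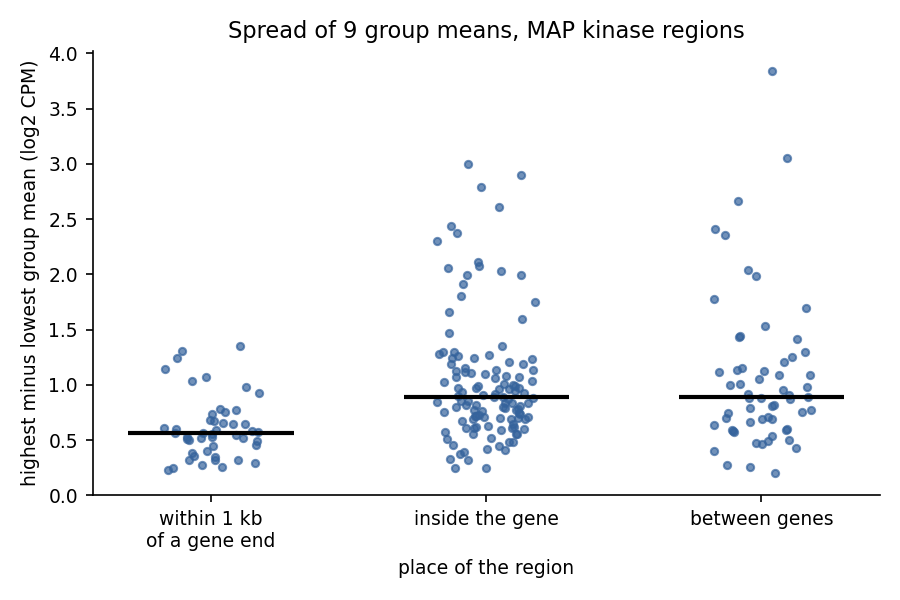
Range of the 9 group means of log2 CPM (vertical axis) for each of the 227 regions, by place: within 1 kb of a gene end, deeper inside a gene, or between genes; each point is 1 region and the black bar is the median. The bar stands at 0.56 for gene ends and at 0.89 for either other place, and the widest ranges belong to regions away from gene ends.

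The start regions of the genes whose promoters are printed moved little. Map3k3, which encodes MEKK3, had the most open member region, at chr11:106084077-106084578, with 7.00 and 6.83 log2 CPM in medium, 7.20 and 7.09 with LPS alone, 6.62 and 6.79 with CpG then LPS, and 6.81 and 6.79 with polyI:C then LPS. Both LPS-alone libraries lay above the other 6 values given, and the region fell by 0.44 ± 0.12 (SE, adjusted p = 0.00779) after CpG and by 0.35 ± 0.12 (adjusted p = 0.0264) after polyI:C. These falls were not called with libraries brought to one distribution. The start region of Map3k7, which encodes TAK1, the kinase that Toll-like and TNF receptors share, held 5.91 and 5.86 in medium and had no call, and that of Mapkapk2 held 4.57 and 4.43 and had none either. At Mapk8, which encodes JNK1, the start region held 5.91 and 5.79 with TNF alone and 6.04 and 6.28 with polyI:C then TNF, a rise of 0.32 ± 0.12 (adjusted p = 0.0443) that was not called without library 2 of the latter (0.20). The Map2k6 start region held 5.05 and 5.08 in medium and 4.64 and 4.53 with LPS alone, a fall of 0.48 ± 0.15 (adjusted p = 0.0176) that was lost when any 1 of these 4 libraries was left out.

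Among MAP4K genes, the upstream kinases, 24 regions gave 6 higher and 1 lower call with CpG (29.2%, beside 26.0% of all regions). They gave 3 and 1 with LPS (16.7%, beside 24.5%), 4 and 1 with polyI:C (20.8%, beside 22.5%), and 2 and 0 with TNF (8.33%, beside 6.36%). After a first stimulus the calls were 4 and 1 (CpG then LPS), 8 and 1 (polyI:C then LPS), 4 and 1 (CpG then TNF), and 5 and 4 (polyI:C then TNF; 3 and 4 without library 1, 5 and 2 without library 2). Called shares in these first-stimulus comparisons were 20.8%, 37.5%, 20.8% and 37.5%, beside 15.7%, 22.9%, 16.3% and 27.7% of all regions. Map4k3, which encodes GLK, had 14 regions, 9 of them between genes. The region at chr17:80762408-80762909 lay 33852 bases outside the gene, on its upstream side. Its log2 CPM was 3.20 and 2.85 in medium, 5.30 and 5.59 with CpG alone, 4.50 and 4.30 with LPS alone, 3.30 and 3.87 with polyI:C alone, and 2.31 and 2.93 with TNF alone. CpG and LPS libraries lay above medium, and TNF libraries overlapped it. The rise was 2.42 ± 0.19 with CpG (5.36-fold, adjusted p = 3.14e-12) and 1.38 ± 0.19 with LPS (adjusted p = 9.72e-07), while the differences with polyI:C (0.56 ± 0.23, adjusted p = 0.0821) and TNF (−0.40 ± 0.19, adjusted p = 0.273) were not called.

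With a first stimulus the same Map4k3 region held 5.77 and 5.58 after CpG then LPS, 4.87 and 5.34 after polyI:C then LPS, 5.57 and 5.46 after CpG then TNF, and 3.79 and 3.66 after polyI:C then TNF. Each of these pairs lay above the libraries of the same second stimulus alone. CpG first added 1.28 ± 0.19 before LPS (adjusted p = 1.81e-05) and 2.89 ± 0.19 before TNF (7.43-fold, adjusted p = 2.37e-13). The difference between those effects was −1.62 ± 0.27 (adjusted p = 0.00139), the 1 called region of the 227 (0.441%, beside 0.245% of all regions) in the test of whether the effect of CpG depended on the second stimulus; the call was lost without the variance trend. Levels after CpG were nearly alike (5.77 and 5.58 against 5.57 and 5.46), whereas LPS alone and TNF alone were 1.78 apart (adjusted p = 9.88e-08). PolyI:C first added 0.70 ± 0.19 before LPS (adjusted p = 0.00702) and 1.10 ± 0.19 before TNF (adjusted p = 5.46e-05; 1.04 and 1.17 without library 1 or 2).

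A neighbour at chr17:80763065-80763566, within 1 kb of it, held 1.94 and 1.87 with LPS alone, 3.68 and 3.79 with CpG then LPS, and 3.54 and 3.10 with polyI:C then LPS. Its LPS-alone libraries lay below the other 4, with rises of 1.83 ± 0.26 after CpG (adjusted p = 7.78e-06) and 1.41 ± 0.26 after polyI:C (adjusted p = 0.000143), although LPS alone did not differ from medium beyond its error (−0.03). Inside Map4k3, the region at chr17:80686013-80686514 held 1.62 and 1.78 in medium, 3.50 and 3.58 with CpG, 3.65 and 3.61 with LPS, 3.56 and 3.76 with polyI:C, and 3.24 and 3.44 with TNF. The medium libraries lay below all the others, and the 4 rises were of similar size, from 1.65 ± 0.20 with TNF (adjusted p = 3.29e-07) to 1.96 ± 0.24 with polyI:C (adjusted p = 1.39e-07). The start region of Map4k3 was called in none of the 8 comparisons.

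Map4k4, which encodes HGK, had 1 region that was higher in each of the 8 comparisons, at chr1:40022674-40023175 inside the gene. Its values were 1.84 and 0.64 in medium, 3.21 and 3.10 with CpG alone, 2.86 and 2.58 with LPS alone, 3.67 and 3.97 with polyI:C alone, and 2.10 and 2.49 with TNF alone. After a first stimulus they were 4.01 and 3.92 (CpG then LPS), 4.09 and 4.19 (polyI:C then LPS), 3.31 and 3.56 (CpG then TNF), and 3.66 and 3.70 (polyI:C then TNF). None of the compared pairs overlapped, although the medium libraries lay far from each other. The largest rise was with polyI:C alone (2.58 ± 0.32, 5.98-fold, adjusted p = 1.64e-07) and the smallest with TNF alone (1.06 ± 0.26, adjusted p = 0.00889; not called without medium library 2 or TNF library 2). Other Map4k4 regions went the other way: the one at chr1:39922624-39923125 fell by 0.58 to 0.86 in all 4 first-stimulus comparisons (adjusted p = 0.0404 to 0.0015) and by 0.66 with CpG alone (adjusted p = 0.0118). Map4k5 had a called region inside the gene, 1.15 ± 0.28 higher with CpG alone (adjusted p = 0.0018) and 1.28 ± 0.28 higher with CpG before LPS (adjusted p = 0.00158). The same region was also called higher with polyI:C before LPS.

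**Figure D3:**
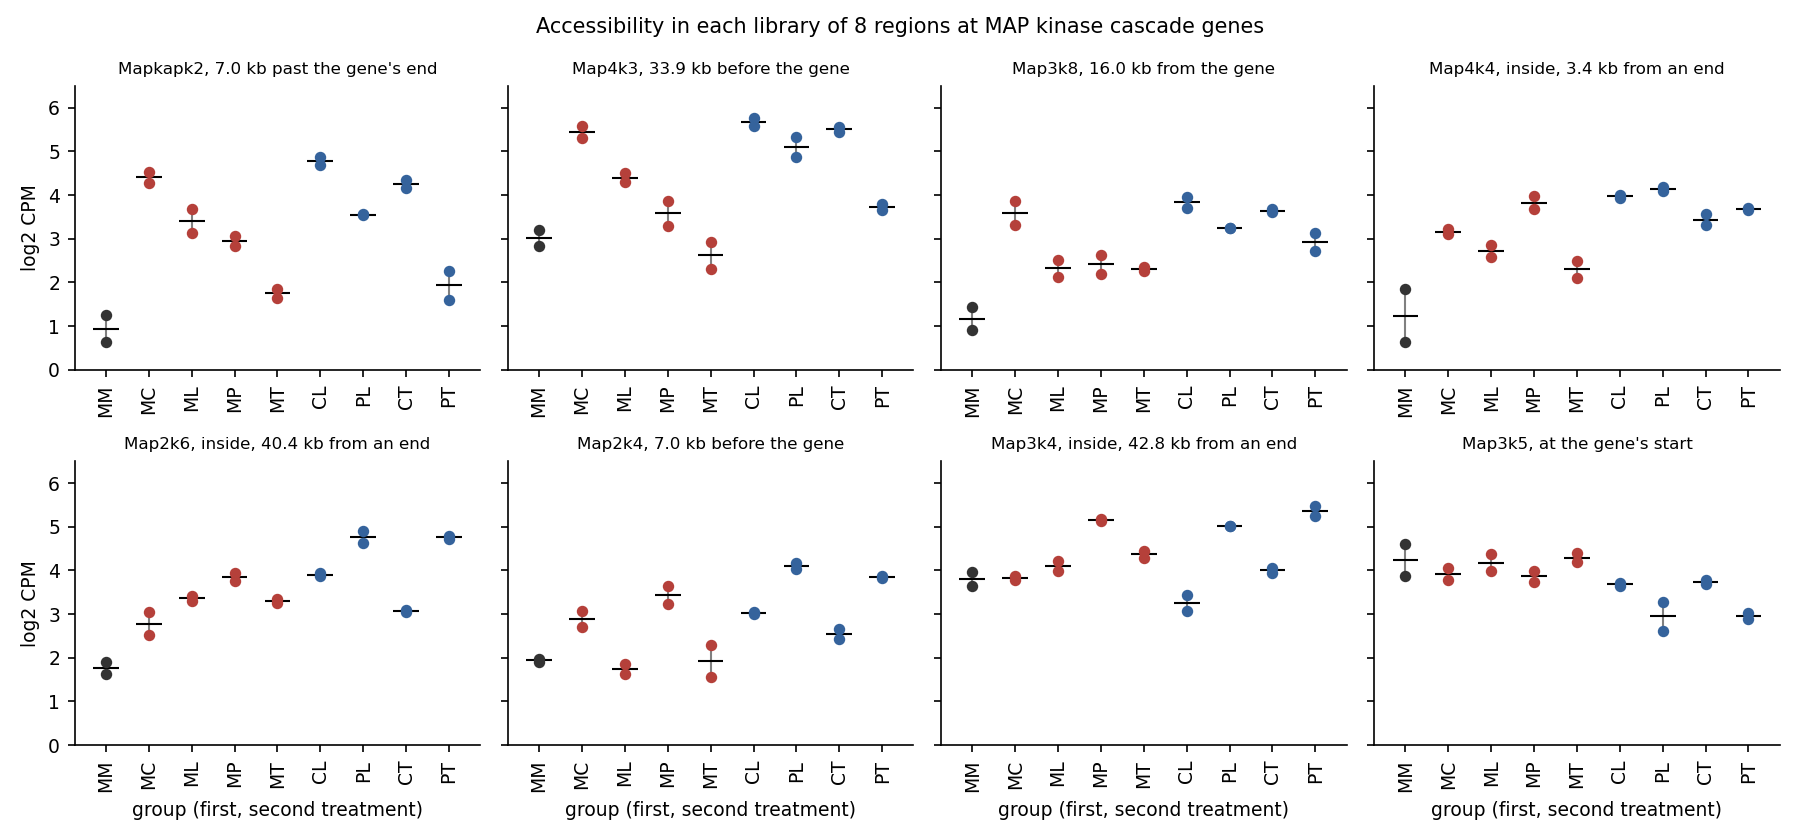
Log2 CPM (vertical axis) in every library for 8 regions near Mapkapk2, Map4k3, Map3k8, Map4k4, Map2k6, Map2k4, Map3k4 and Map3k5, by group; dots are libraries and the line is the group mean, with medium in black, single stimuli in red and sequences of 2 stimuli in blue. The Mapkapk2 region runs from 0.64 in a medium library to 4.87 in a CpG then LPS library, the Map2k4 and Map3k4 regions are high in the polyI:C groups, and the Map3k5 region is lowest in the sequences that begin with polyI:C.

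MAP3K genes, which collect signals from different receptors, had 86 regions. With single stimuli they gave 12 higher and 8 lower calls with CpG (23.3%, beside 26.0% of all regions), and 8 and 3 with LPS (12.8%, beside 24.5%). They gave 11 and 7 with polyI:C (20.9%, beside 22.5%), and 4 and 2 with TNF (6.98%, beside 6.36%). After polyI:C they gave 19 lower calls before LPS (22.1%, beside 9.36% of all regions) and 5 higher, and 20 lower before TNF (23.3%, beside 12.7%) and 4 higher (23 lower and 4 higher without library 1 of polyI:C then TNF, 11 and 6 without library 2). The 59 regions of macrophage marker genes moved in the same comparisons, with 12 lower and 3 higher before LPS and 18 lower and 2 higher before TNF, and their part in the result was not tested. After CpG the MAP3K regions gave 10 lower and 6 higher calls before LPS (18.6%, beside 15.7% of all regions). Before TNF they gave 2 lower and 10 higher (14.0%, beside 16.3%).

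Map3k8 encodes TPL2, the kinase through which Toll-like receptors drive ERK in macrophages. Of its 9 regions, 5 were higher and 0 lower with CpG, 3 and 0 with LPS, 2 and 1 with polyI:C, and 2 and 0 with TNF. Of all regions 17.2%, 15.0%, 14.3% and 5.79% were higher, in the same order. CpG first gave 2 higher and 3 lower before LPS, and 3 and 0 before TNF. PolyI:C first gave 1 higher and 2 lower before LPS, and 0 and 1 before TNF. The region at chr18:4315121-4315622, 15954 bases from the gene, held 1.44 and 0.90 in medium, 3.87 and 3.31 with CpG alone, 2.52 and 2.12 with LPS alone, 2.20 and 2.64 with polyI:C alone, and 2.26 and 2.36 with TNF alone. Medium was below all of these, and CpG above the rest, with a rise of 2.42 ± 0.26 (5.34-fold, adjusted p = 3.05e-09) against 1.14 to 1.25 for the other stimuli (adjusted p = 0.00319 to 0.00101). CpG first raised it by a further 1.51 ± 0.26 before LPS (adjusted p = 9.71e-05) and 1.33 ± 0.26 before TNF (adjusted p = 0.000277).

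A second Map3k8 region, inside the gene at chr18:4336298-4336799, was chosen after its values were seen. It held 4.78 and 4.43 in medium, 5.48 and 5.55 with CpG alone, 5.28 and 5.40 with CpG then LPS, and 5.36 and 5.38 with CpG then TNF. The 6 CpG libraries lay above the 2 medium libraries, and LPS alone (4.56 and 4.69), polyI:C alone (4.33 and 4.29) and TNF alone (4.32 and 4.37) gave no call against medium. PolyI:C then TNF was lower than TNF alone, at 3.72 and 3.70 (−0.64 ± 0.15, adjusted p = 0.00184; −0.65 and −0.62 without library 1 or 2), so that the 2 first stimuli were called in opposite directions here. The Map3k8 start region rose by 0.38 ± 0.11 with CpG (adjusted p = 0.0106) and 0.47 ± 0.14 with polyI:C (adjusted p = 0.0118).

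Map3k5 encodes ASK1, a stress-activated kinase upstream of JNK and p38, and its 11 regions moved in both directions. Inside the gene, 2585 bases after the start, the region at chr10:19936861-19937362 held 1.13 and 1.49 in medium, 3.25 and 3.62 with CpG, 3.25 and 3.43 with LPS, 3.10 and 2.83 with polyI:C, and 2.54 and 2.49 with TNF. Again medium lay below each of the other libraries, and the rises ran from 1.20 ± 0.24 with TNF (adjusted p = 0.000773) to 2.12 ± 0.24 with CpG (adjusted p = 1.14e-08). A region at chr10:20005433-20005934 rose most with polyI:C (2.08 ± 0.36, adjusted p = 3.62e-05), from 1.62 and 1.49 in medium to 3.54 and 3.71.

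At the start of Map3k5 the pattern was another. The region at chr10:19933676-19934177, 175 bases from the gene, held 4.60 and 3.88 in medium, 3.98 and 4.38 with LPS alone, 4.39 and 4.20 with TNF alone, 3.28 and 2.62 with polyI:C then LPS, and 2.89 and 3.03 with polyI:C then TNF. The 4 libraries that began with polyI:C were the lowest of these. The falls were 1.23 ± 0.22 before LPS (log2 difference −1.23, adjusted p = 0.000131) and 1.34 ± 0.22 before TNF (−1.34, adjusted p = 3.35e-05; −1.27 and −1.41 without library 1 or 2). PolyI:C alone, at 3.73 and 3.99, was not called against medium (−0.38). The regions at 4861 and 7600 bases after the start were lower in the same comparisons (adjusted p = 0.0317 to 9.86e-06), by −0.97 and −1.21 before TNF, while the region between them and the start, at 2585 bases, was called in neither.

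Map3k14 encodes NIK, the kinase of the non-canonical NF-kB pathway. Of its 7 regions, 5 were lower after polyI:C then LPS and 4 after polyI:C then TNF (5 without library 1, 2 without library 2), and none higher. Among all regions 9.36% were lower in the first of these comparisons and 12.7% in the second. The Map3k14 region 14554 bases upstream, at chr11:103281705-103282206, held 4.72 and 4.80 with LPS alone, 4.06 and 3.77 with polyI:C then LPS, 4.73 and 4.53 with TNF alone, and 3.83 and 2.86 with polyI:C then TNF. The polyI:C libraries lay below in both comparisons, by 0.85 ± 0.20 (log2 difference −0.85, adjusted p = 0.00231) and 1.29 ± 0.20 (−1.29, adjusted p = 1.45e-05; −1.77 without library 1 and −0.80 without library 2, called in either). Inside the gene, chr11:103246271-103246772 held 4.91 and 4.66 in medium and 3.99 and 3.99 with CpG alone, 4.66 and 4.30 with LPS alone, 3.62 and 3.51 with CpG then LPS, and 3.60 and 3.48 with polyI:C then LPS. It was lower with CpG alone (−0.80 ± 0.19, adjusted p = 0.00184) and after either first stimulus before LPS (−0.91, adjusted p = 0.00123, and −0.94, adjusted p = 0.000563). The start region, printed above, fell by 0.38 ± 0.13 after polyI:C then LPS (adjusted p = 0.0335), from 6.39 and 6.48 to 6.03 and 6.08, and this call was lost with libraries brought to one distribution.

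In Map3k4, which encodes MEKK4, a region inside the gene at chr17:12275738-12276239 was highest in the 3 polyI:C groups. It held 3.97 and 3.64 in medium, 5.14 and 5.18 with polyI:C alone, 5.01 and 5.03 with polyI:C then LPS, and 5.47 and 5.25 with polyI:C then TNF. CpG alone (3.79 and 3.86) and LPS alone (3.98 and 4.22) were close to medium, TNF alone held 4.44 and 4.29, and CpG then LPS was the lowest at 3.43 and 3.07. The 6 polyI:C libraries were above the 12 others. PolyI:C alone raised it by 1.35 ± 0.21 (adjusted p = 8.38e-06), TNF alone by 0.56 ± 0.17 (adjusted p = 0.0447), polyI:C before LPS by 0.92 ± 0.17 (adjusted p = 0.000214) and before TNF by 0.99 ± 0.17 (adjusted p = 6.24e-05; 0.88 and 1.11 without library 1 or 2), whereas CpG before LPS lowered it (−0.85 ± 0.17, adjusted p = 0.000835).

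Falls with single stimuli were led by 2 MAP3K genes. Map3k19 had a region at chr1:127850071-127850572 that held 4.56 and 4.30 in medium, 3.18 and 3.28 with CpG, 3.69 and 3.41 with LPS, 3.25 and 3.17 with polyI:C, and 3.97 and 3.90 with TNF. Medium was the highest, and the differences with CpG (−1.20 ± 0.20, adjusted p = 1.66e-05), LPS (−0.88, adjusted p = 0.00133) and polyI:C (−1.22 ± 0.25, adjusted p = 0.000291) were called, that with TNF (−0.50, adjusted p = 0.166) was not. Map3k20, which encodes the stress kinase ZAK, had the 1 region lower with all 4, at chr2:72322864-72323365: 3.48 and 3.68 in medium, 2.11 and 2.79 with CpG, 2.97 and 2.70 with LPS, 2.51 and 1.95 with polyI:C, and 2.93 and 2.49 with TNF. No library of a stimulus reached the medium libraries, with differences of −1.12 ± 0.26 (CpG, adjusted p = 0.00114), −0.74 (LPS, adjusted p = 0.0343), −1.35 ± 0.32 (polyI:C, adjusted p = 0.00167) and −0.87 (TNF, adjusted p = 0.0373). Those with LPS and TNF were not called with libraries brought to one distribution.

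Other MAP3K genes had called regions too. In Map3k3, chr11:106141909-106142410 was higher in all 4 first-stimulus comparisons, by 0.94 (CpG) and 1.22 (polyI:C) before LPS and by 1.45 and 1.38 before TNF (adjusted p = 0.0314 to 0.000726), and its neighbour at chr11:106141341-106141842 rose by 1.92 ± 0.38 with CpG before TNF (adjusted p = 0.000439) on a median of 8 reads per library. Map3k1, which encodes MEKK1, had a region 3673 bases outside the gene that rose by 1.77 ± 0.27 with CpG before TNF (adjusted p = 7.94e-06), from 1.72 and 1.64 to 3.28 and 3.62. Map3k9 had 3 regions lower after polyI:C before either second stimulus, its start region among them (−0.48 ± 0.14 before LPS, adjusted p = 0.0108; −0.37 before TNF, adjusted p = 0.0444, not called without library 2 of polyI:C then TNF). Map3k2 and Map3k11 each had 1 such region (−0.84 and −0.76 before LPS, adjusted p = 0.0015 and 0.013). Before TNF their differences were −0.59 and −0.59. The Map3k2 region was not called before TNF without library 1 of polyI:C then TNF (−0.47), nor the Map3k11 region without library 2 (−0.49). The Map3k9 region at chr12:81754585-81755086 was not called before TNF without library 2 either (−0.47).

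MAP2K genes encode the kinases directly above the MAP kinases. Their 44 regions gave 9 higher and 2 lower calls with CpG (25.0%, beside 26.0% of all regions), and 5 and 2 with LPS (15.9%, beside 24.5%). They gave 7 and 3 with polyI:C (22.7%, beside 22.5%), and 2 and 0 with TNF (4.55%, beside 6.36%). After a first stimulus the calls were 4 higher and 0 lower (CpG then LPS), 8 and 2 (polyI:C then LPS), 4 and 0 (CpG then TNF), and 9 and 5 (polyI:C then TNF; 13 and 10 without library 1, 6 and 1 without library 2). Called shares in these first-stimulus comparisons were 9.09%, 22.7%, 9.09% and 31.8%, beside 15.7%, 22.9%, 16.3% and 27.7% of all regions. More of the higher calls were at Map2k6 than at any other MAP2K gene, and it also held the most regions, 18 of the 44. Map2k6 encodes MKK6, an activator of p38.

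At Map2k6 the higher calls with single stimuli lay in the gene body, from 21.59 to 40.43 kb after the first RefSeq start. The region at chr11:110439284-110439785 held 1.62 and 1.91 in medium, 2.53 and 3.04 with CpG, 3.42 and 3.31 with LPS, 3.75 and 3.93 with polyI:C, and 3.24 and 3.34 with TNF. Medium was lowest and polyI:C highest, with rises from 1.02 ± 0.21 (CpG, adjusted p = 0.000243) to 2.08 ± 0.25 (polyI:C, adjusted p = 9.89e-08). Before a second stimulus polyI:C raised it to 4.90 and 4.62 (LPS) and 4.72 and 4.79 (TNF), while after CpG it held 3.94 and 3.87 (LPS) and 3.06 and 3.10 (TNF). The differences after polyI:C were 1.40 ± 0.21 (adjusted p = 8.29e-06) and 1.47 ± 0.21 (adjusted p = 2.94e-06; 1.50 and 1.43 without library 1 or 2), and those after CpG, 0.55 and −0.21, were not called.

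The region at chr11:110429526-110430027 was called in 7 of the 8 comparisons. It held 2.99 and 3.45 in medium, 4.92 and 4.75 with CpG, 4.08 and 4.15 with LPS, 5.22 and 5.14 with polyI:C, and 3.58 and 3.90 with TNF. TNF was the nearest to medium (0.52, adjusted p = 0.0725), and polyI:C the farthest (1.96 ± 0.21, adjusted p = 9.64e-09). First stimuli added 0.61 (CpG) and 1.02 (polyI:C) before LPS, and 0.86 and 1.54 before TNF (adjusted p = 0.0151 to 6.05e-08). At chr11:110420443-110420944 the order of the stimuli was another: 1.01 and 1.78 in medium, 2.72 and 2.75 with CpG alone, 2.08 and 1.94 with LPS alone, 3.94 and 4.29 with CpG then LPS, and 2.74 and 2.90 with polyI:C then LPS. CpG then LPS was the highest, 2.11 ± 0.28 above LPS alone (4.32-fold, adjusted p = 3.52e-06). A region past the gene, at chr11:110538153-110538654, fell with 3 of the single stimuli (−0.48 with CpG, −0.68 with LPS and −0.79 with polyI:C, adjusted p = 0.0471 to 0.00602). Of all regions in the table, 15.0% were higher and 12.7% lower after polyI:C then TNF. After polyI:C then TNF 7 of the 18 regions were higher and 0 lower (8 and 0 without library 1, 5 and 1 without library 2).

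Map2k4 encodes MKK4, an activator of JNK and p38. A region 6964 bases upstream, at chr11:65795073-65795574, held 1.98 and 1.91 in medium, 3.08 and 2.71 with CpG, 1.62 and 1.87 with LPS, 3.65 and 3.24 with polyI:C, and 1.56 and 2.28 with TNF. CpG and polyI:C libraries stood above medium, LPS libraries below it, and TNF libraries on either side. It rose with CpG (0.95 ± 0.25, adjusted p = 0.0044) and polyI:C (1.50 ± 0.31, adjusted p = 0.000389), and the differences with LPS (−0.20, adjusted p = 0.612) and TNF (−0.02) were not called. In the sequences it held 3.05 and 3.00 with CpG then LPS, 4.18 and 4.02 with polyI:C then LPS, 2.65 and 2.42 with CpG then TNF, and 3.87 and 3.83 with polyI:C then TNF. PolyI:C first raised it by 2.36 ± 0.25 before LPS (5.12-fold, adjusted p = 5.24e-08) and 1.92 ± 0.25 before TNF (adjusted p = 9.48e-07; 1.90 and 1.94 without library 1 or 2), and CpG first by 1.28 ± 0.25 before LPS (adjusted p = 0.000615). The gene Zkscan6 lies 11831 bases from it.

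At Map2k1, which encodes MEK1, a region 521 bases after the start rose by 1.12 ± 0.24 with CpG (adjusted p = 0.00046), 1.12 ± 0.24 with LPS (adjusted p = 0.000661) and 1.31 ± 0.29 with polyI:C (adjusted p = 0.001), from 2.32 and 2.64 in medium to 3.48 and 3.73, 3.67 and 3.52, and 3.79 and 3.78. All 6 stimulated libraries were above medium. This region was chosen after its values were seen. The region over the start itself, at chr9:64253398-64253899, was called in none of the 8 comparisons. Deeper in Map2k1, chr9:64222006-64222507 was lower after polyI:C before LPS (−0.87 ± 0.28, adjusted p = 0.0243) and before TNF (−1.21 ± 0.28, adjusted p = 0.00171), and the latter was −1.80 without library 1 and −0.61, not called, without library 2. Map2k7, which encodes MKK7, had 1 region, at its start, and this rose by 0.34 ± 0.10 after polyI:C then LPS (adjusted p = 0.0137). Map2k3 had 3 regions lower after polyI:C then TNF (0 without library 2), its start region among them (−0.53 ± 0.16, adjusted p = 0.014; −0.23 without library 2). Map2k5 had 2 regions and no call.

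Of the 28 regions of the MAP kinase genes themselves, 1 was higher with CpG (3.57%, beside 17.2% of all regions), 4 with LPS (14.3%, beside 15.0%), 2 with polyI:C (7.14%, beside 14.3%) and 0 with TNF (beside 5.79%), and 0 was lower with any of them. First stimuli gave 0 higher and 2 lower calls (CpG then LPS), 2 and 2 (polyI:C then LPS), 0 and 0 (CpG then TNF), and 3 and 4 (polyI:C then TNF; 2 and 8 without library 1, 3 and 1 without library 2). Called shares in these first-stimulus comparisons were 7.14%, 14.3%, 0.0% and 25.0%, beside 15.7%, 22.9%, 16.3% and 27.7% of all regions. Mapk9 (3 regions) had no call in the 8 comparisons. Its start region held 6.11 and 6.04 in medium, and its group means spanned 0.26 over the 9 groups.

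Mapk14, which encodes p38α, had 3 regions. At chr17:28737912-28738413, chosen after its values were seen, the level was 2.90 and 2.49 in medium, 3.95 and 3.71 with LPS alone, 3.28 and 3.28 with CpG alone, and 3.00 and 3.17 with polyI:C then LPS. LPS-alone libraries were the highest, with a rise of 1.14 ± 0.22 over medium (adjusted p = 0.000216) and a fall of 0.75 (log2 difference −0.75, adjusted p = 0.0135) when polyI:C preceded LPS. The region 2386 bases past the gene, at chr17:28750541-28751042, held 4.90 and 4.81 with LPS alone, 4.28 and 4.26 with CpG then LPS, 4.23 and 4.02 with polyI:C then LPS, 4.46 and 4.20 with TNF alone, and 3.81 and 3.08 with polyI:C then TNF. It was lower after polyI:C before LPS (−0.73 ± 0.19, adjusted p = 0.00459) and before TNF (−0.89 ± 0.19, adjusted p = 0.000598; −1.25 and −0.52 without library 1 or 2, called in either). Mapk13 lies 18495 bases from this region.

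Mapk6, which encodes the atypical kinase ERK3, had a region 12281 bases upstream, at chr9:75422047-75422548, with 3.82 and 3.41 in medium, 4.22 and 4.27 with LPS alone, 4.33 and 4.41 with polyI:C alone, 4.76 and 4.82 with polyI:C then LPS, 4.06 and 4.12 with TNF alone, and 5.10 and 5.20 with polyI:C then TNF. Values were highest where polyI:C came first. The rises were 0.63 with LPS (adjusted p = 0.00505), 0.76 with polyI:C (adjusted p = 0.00571), 0.54 with polyI:C before LPS (adjusted p = 0.0179) and 1.06 ± 0.17 with polyI:C before TNF (adjusted p = 1.56e-05; 1.11 and 1.01 without library 1 or 2). Mapk3, which encodes ERK1, had 3 regions lower after polyI:C then TNF (−0.70, −0.62 and −0.48, adjusted p = 0.00661 to 0.0477), none of which was called without library 2.

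MAPKAPK genes encode kinases that act after p38 and ERK. Called shares of their 28 regions were 46.4% (CpG), 28.6% (LPS), 17.9% (polyI:C) and 10.7% (TNF), beside 26.0%, 24.5%, 22.5% and 6.36% of all regions. After a first stimulus they were 17.9% (CpG then LPS), 21.4% (polyI:C then LPS), 17.9% (CpG then TNF) and 32.1% (polyI:C then TNF). Those of all regions were 15.7%, 22.9%, 16.3% and 27.7%. By direction, 17.2% of all regions were higher and 8.79% lower with CpG, and 15.0% and 9.55% with LPS. The shares were 14.3% and 8.28% with polyI:C, and 5.79% and 0.573% with TNF. With CpG first they were 9.95% and 5.76% before LPS, and 10.6% and 5.65% before TNF. With polyI:C first they were 13.5% and 9.36% before LPS, and 15.0% and 12.7% before TNF. The calls of MAPKAPK genes were almost all at Mapkapk2, which held 18 of the 28 regions. This gene encodes MK2, which stabilises cytokine mRNAs. Its 18 regions gave 9 higher and 3 lower calls with CpG, 8 and 0 with LPS, 4 and 1 with polyI:C, and 3 and 0 with TNF. With a first stimulus the calls were 2 higher and 3 lower for CpG before LPS, 3 and 2 for CpG before TNF, 0 and 6 for polyI:C before LPS, and 0 and 7 for polyI:C before TNF (0 and 9 without library 1, 1 and 4 without library 2).

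The member region with the largest change lay 6989 bases past the 3′ end of Mapkapk2, at chr1:131046461-131046962, 21741 bases from Il10, the gene of an anti-inflammatory cytokine. It held 1.24 and 0.64 in medium, 4.54 and 4.29 with CpG, 3.67 and 3.14 with LPS, 2.83 and 3.07 with polyI:C, and 1.86 and 1.64 with TNF. The medium libraries were the lowest and no libraries of these 5 groups overlapped. The rises were 3.48 ± 0.25 with CpG (11.1-fold, adjusted p = 3.52e-13), 2.47 ± 0.25 with LPS (adjusted p = 1.8e-09), 2.01 ± 0.31 with polyI:C (adjusted p = 5.16e-06) and 0.81 ± 0.25 with TNF (adjusted p = 0.0445), and CpG exceeded LPS by 1.01. In the sequences it held 4.87 and 4.70 with CpG then LPS, 3.54 and 3.57 with polyI:C then LPS, 4.16 and 4.34 with CpG then TNF, and 2.27 and 1.60 with polyI:C then TNF. CpG first added 1.38 ± 0.25 before LPS (adjusted p = 0.000227) and 2.50 ± 0.25 before TNF (adjusted p = 3.26e-09), whereas polyI:C first gave 0.15 (adjusted p = 0.713) and 0.18 (adjusted p = 0.619), and its libraries overlapped those of the second stimulus alone.

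A region nearer to the gene, at chr1:131049972-131050473, ran alike: 2.93 and 2.78 in medium, 5.04 and 5.12 with CpG, 4.85 and 4.65 with LPS, 4.37 and 4.24 with polyI:C, and 4.10 and 3.54 with TNF. Medium was again the lowest, and the rises were 2.23 ± 0.18, 1.89 ± 0.18, 1.45 ± 0.22 and 0.97 ± 0.18 in that order (adjusted p = 4.3e-12 to 0.000285). Inside the gene, chr1:131092133-131092634 rose most with LPS (1.95 ± 0.22, adjusted p = 1.4e-08), from 2.04 and 2.23 in medium to 4.00 and 4.18, and with TNF (1.28 ± 0.22, adjusted p = 9.53e-05) to 3.39 and 3.44. It was called in no first-stimulus comparison.

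Close to the Mapkapk2 start, 893 bases after it, chr1:131096700-131097201 went down. It held 4.63 and 4.68 in medium, 3.93 and 3.84 with CpG, 4.36 and 4.22 with LPS, 3.63 and 4.01 with polyI:C, and 4.42 and 4.83 with TNF. CpG and polyI:C libraries lay below medium, by 0.77 ± 0.19 (log2 difference −0.77, adjusted p = 0.00174) and 0.83 ± 0.23 (−0.83, adjusted p = 0.00621). First stimuli lowered it in all 4 comparisons, from −0.60 (CpG before TNF, adjusted p = 0.0216) to −1.03 (polyI:C before TNF, adjusted p = 9.25e-05; −1.18 and −0.88 without library 1 or 2). The region at chr1:131084165-131084666 rose with CpG (0.80 ± 0.18, adjusted p = 0.000818) and LPS (0.87 ± 0.18, adjusted p = 0.000408) and was lower when polyI:C came before LPS (−0.74 ± 0.18, adjusted p = 0.00265). Its fall with polyI:C before TNF (−0.78 ± 0.18, adjusted p = 0.00137) was not called without library 2 (−0.46).

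**Figure D4:**
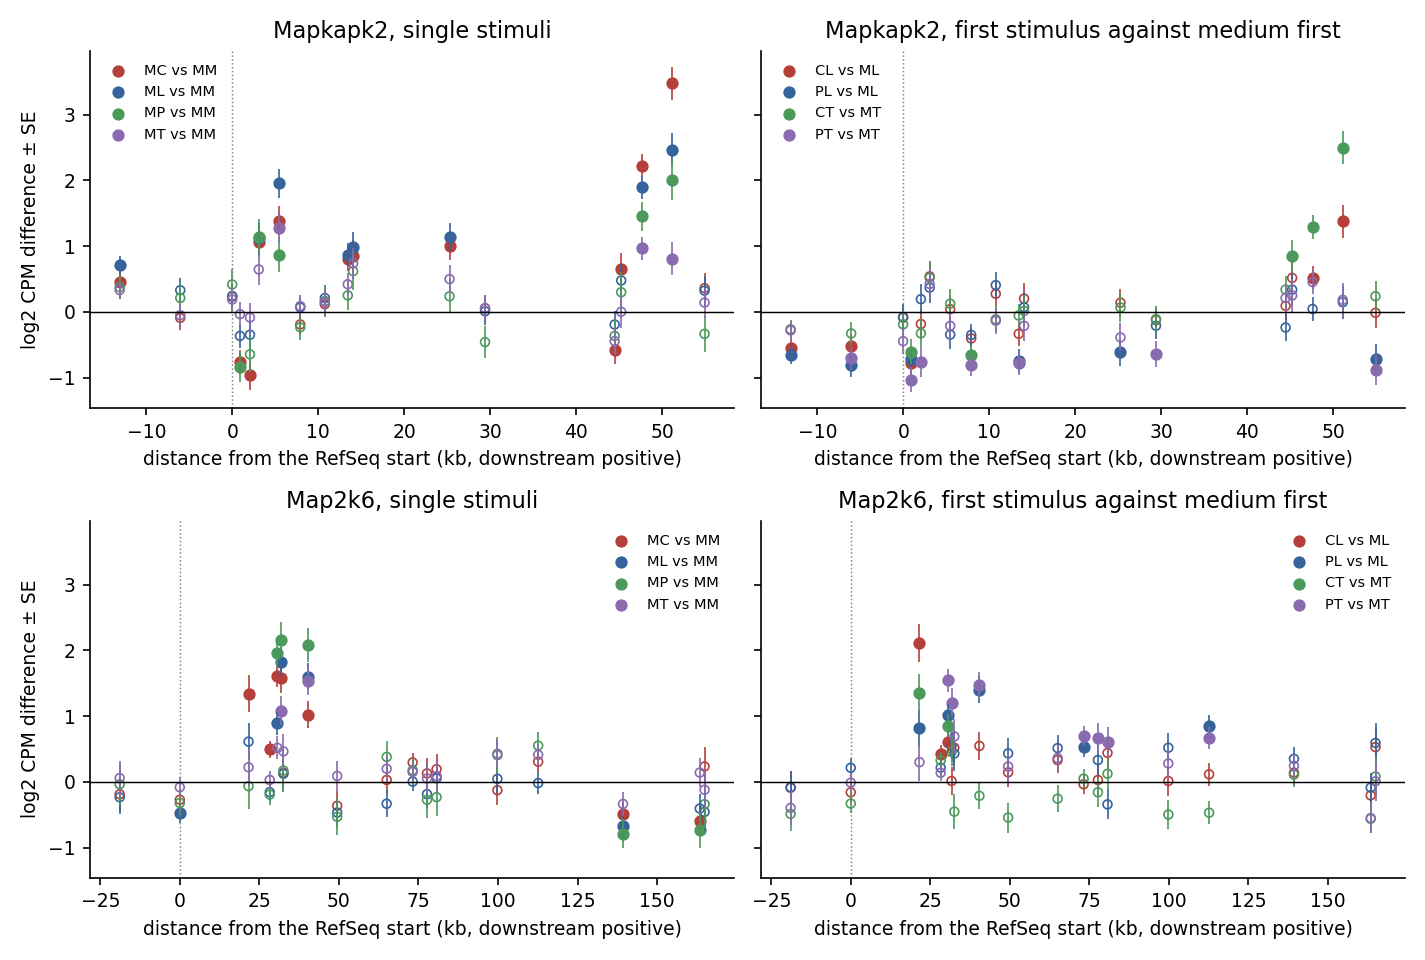
Log2 difference ± SE (vertical axis) of each region assigned to Mapkapk2 and Map2k6, against its distance from the gene's first RefSeq start in kb (horizontal axis), for the comparisons named in the panels; filled points were called and open points were not. At Mapkapk2 the largest rises lie about 50 kb from the start, past the 3′ end, and the start region is uncalled; at Map2k6 they lie within the gene body.

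Mapkapk3, which encodes MK3, had 8 regions and 2 calls, 1 lower with CpG alone (−0.53 ± 0.19, adjusted p = 0.0355) and 1 higher with polyI:C before TNF (0.72 ± 0.22, adjusted p = 0.015). Mapkapk5 had 1 call, a fall of its start region after polyI:C then TNF (−0.69 ± 0.20, adjusted p = 0.0106; −0.52, not called, without library 1).

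The genes that share the names without being cascade kinases include Mapk8ip3, which encodes the JNK scaffold JIP3. Its region at chr17:24929466-24929967 held 1.13 and 1.78 in medium, 2.85 and 3.17 with CpG, 3.47 and 3.02 with LPS, and 2.60 and 2.42 with polyI:C, all above medium. It rose by 1.55 ± 0.28 (adjusted p = 4.15e-05), 1.79 ± 0.28 (adjusted p = 6.81e-06) and 1.05 ± 0.34 (adjusted p = 0.0214). Map3k7cl had 3 of its 6 regions higher with CpG before LPS, and Mapk1ip1l 2 of 2, beside 9.95% of all regions. Mapk8ip1 and Mapk8ip2 had none.

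Certain regions answered alike to 1 first stimulus under either second stimulus. PolyI:C first lowered 19 regions before both LPS and TNF (8.37%, beside 6.22% of all regions), 12 of them at MAP3K genes (Map3k2, Map3k5, Map3k9, Map3k11, Map3k14, Map3k20), 4 at Mapkapk2 and 1 each at Map4k4, Map2k1 and Mapk14. It raised 13 before both (5.73%, beside 9.36%), at Map2k6 (4), Map4k3 (3), Map2k4 (2), Map4k4, Map3k3, Map3k4 and Mapk6. Without library 1 of polyI:C then TNF these counts were 24 and 15, and without library 2 they were 11 and 16. CpG first raised 15 before both (6.61%, beside 5.56%), at Map4k3 (2), Map3k8 (2), Map2k6 (2), Mapkapk2 (2) and 7 other genes, and lowered 2 (0.881%, beside 1.86%), at Map4k4 and Mapkapk2. Higher in all 4 comparisons were 4 regions (1.76%, beside 2.49%), at Map4k3, Map4k4, Map3k3 and Map2k6. Comparisons with the same second stimulus share its libraries, so these counts are not independent.

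The single stimuli were also compared with each other. CpG alone and LPS alone differed at 11 of the 227 regions (10 higher with CpG, 1 lower; 4.85%, beside 5.66% of all, 3.74% higher and 1.93% lower), among them those of Map3k8 (1.27), Map2k4 (1.15), Map4k3 (1.04) and Mapkapk2 (1.01) given above. PolyI:C alone and LPS alone differed at 19 (12 higher with polyI:C, 7 lower; 8.37%, beside 11.4%, 6.24% higher and 5.19% lower), led by Map2k4 (1.70 ± 0.31, adjusted p = 0.000227) and a region near Map3k7 (1.41 ± 0.34, adjusted p = 0.00448) among rises and by Mapkapk2 (−1.09 ± 0.27, adjusted p = 0.00537) and Map2k1 (−1.03 ± 0.28, adjusted p = 0.0106) among falls. With libraries shifted to one median the split was 12 and 11 (52.2% higher, against 63.2%). LPS alone exceeded TNF alone at 7 (3.08%, beside 4.34% of all, 3.11% higher and 1.23% lower), with the largest differences at Map4k3 (1.78) and Mapkapk2 (1.66, adjusted p = 5e-05), and was below it at 0.

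Whether the effect of polyI:C depended on the second stimulus was tested in the same way as for CpG. By limma 0 of the 227 regions were called (0.0% of all regions), 15 had an unadjusted p under 0.05, beside 2597 of all 53796, and limma-voom on the recovered reads also called 0. This does not show that polyI:C acted alike before LPS and TNF, since the median SE of such a difference was 0.29.

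Other genes of the pathway were counted by the same assignment. The dual-specificity phosphatases, which switch MAP kinases off, had 70 regions at 9 of 10 genes. Their calls were 20 higher and 2 lower with LPS (31.4%, beside 24.5% of all regions), 11 and 6 with CpG (24.3%, beside 26.0%), 12 and 5 with polyI:C (24.3%, beside 22.5%) and 8 and 0 with TNF (11.4%, beside 6.36%). PolyI:C before LPS gave 7 higher and 14 lower (30.0%, beside 22.9%), with a median difference of −0.18. Upstream and scaffold genes, such as those of the Ras, Raf and TRAF proteins, had 152 regions at 25 of 26 genes. Here the calls were 40 higher and 9 lower with CpG (32.2%), 38 and 7 with LPS (29.6%), 26 and 5 with polyI:C (20.4%), and 13 and 2 with TNF (9.87%), beside the same shares of all regions. With polyI:C before LPS these upstream and scaffold regions gave 14 higher and 11 lower (16.4%, beside 22.9%), with a median difference of −0.13. Genes downstream of the cascade, such as those of AP-1 and MEF2 proteins, had 129 regions at 20 of 20 genes. These gave 19 higher and 16 lower calls with CpG and the same with LPS (27.1% each), 14 and 11 with polyI:C (19.4%), and 6 and 0 with TNF (4.65%). PolyI:C before LPS gave 10 higher and 29 lower (30.2%, beside 22.9%), with a median of −0.14, beside a median of 0.02 over all regions.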

How the data were processed

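ATAC-seq was done on 18 libraries of mouse macrophages, 2 for each of 9 treatments. The authors deposited log2 CPM per region and library, with regions named by mm10 coordinates. The submitters' processing notes list featureCounts, MACS3 3.0.0b1, Picard, SAMtools 1.9 and Bowtie2 2.2.5, without settings; how regions were merged and values normalised is not given in the sources used here. Whole reads were recovered from the values within 0.01 in 100% of cases, with a prior of about 3 reads, so differences of low regions are understated.

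Groups came from the labels. Regions were assigned by centre to the nearest protein-coding gene body of a RefSeq table within 50 kb. Group means were fitted to the log2 CPM of all 53796 regions with limma 3.58.1 (R 4.3.3; tables with Python 3.11.15 and pandas 2.3.3), with a variance trend and one spread over the 17 samples left after counting the libraries of polyI:C alone as 1 (8 residual degrees of freedom). Tests were two-sided, and called means a Benjamini-Hochberg adjusted p under 0.05 over all regions. The median SE was 0.208 between 2 groups and 0.254 with polyI:C alone. Tested on simulated data (200 of 53796 regions changed, dispersion 0.01), the fit recovered 66% of changes of 1 log2 unit and 100% of changes of 2 units between CpG alone and medium, with 7 other calls. At 1 log2 unit it recovered 40% for polyI:C alone (1 other call), 54% for CpG then LPS (11 other calls) and 20% for the CpG difference between second stimuli (5 other calls).

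The members and lists were chosen with earlier results of these data known. Named with values were, per comparison, up to 6 of the largest rises and falls among called regions whose libraries did not overlap, with 1 region per gene and direction, and the most open gene-end region of listed kinases; genes with most regions were described by region. Alternatives covered scaling, filters, pseudocount, assignment, models and left-out libraries. Region sequences were not used here. Some items are not reported here.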

Additional observations from a re-analysis of the deposited data

Results flagged for a closer look

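The region at chr17:80762408-80762909, upstream of Map4k3, was the 1 member region in which the effect of CpG differed between the second stimuli by a test of the difference itself: CpG first added 1.28 before LPS and 2.89 before TNF, a difference of −1.62 ± 0.27 on the log2 scale (limma, Benjamini-Hochberg adjusted p = 0.00139). The 2 libraries of each of the 4 groups did not overlap within either comparison. With 2 libraries per group, no group was large enough to ask whether a single library lay far from the others.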

How the results depend on the processing

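Of 302 differences at named regions, 105 were called, and over 2891 alternative values of these, 2701 kept their call, 190 lost it and 0 changed sign. Of the 105, 62 kept their call under every alternative. Many alternatives left out a library of a group outside the comparison. Many of the named regions were picked for large changes in these data, which favours kept calls. Counts of called regions moved by more than 1.5 times as follows. Dropping regions under the 25th percentile of mean level gave 37 for CpG, 27 for polyI:C, 16 for CpG then TNF and 4 for LPS against TNF. Fitting only the groups compared gave 59 for LPS, 59 for CpG then LPS, 28 for polyI:C then TNF, 41 for CpG against LPS, 53 for polyI:C against LPS, 26 for LPS against TNF and 5 for the CpG difference between second stimuli. One distribution gave 4 for TNF and 3 for LPS against TNF. A 10 kb assignment gave 7 for CpG against LPS and 0 for the CpG difference, which was also 0 without the variance trend and 2 with voom. PolyI:C against LPS gave 46 with its libraries as 2 samples and 46 with voom. Leaving out both libraries of polyI:C then TNF, chosen after seeing the data, gave 20 for TNF, 20 for CpG against LPS, 31 for polyI:C against LPS, 18 for LPS against TNF and 5 for the CpG difference.

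Leaving out 1 library at a time, with the spread pooled so that a lone library is assumed to vary like the others, gave 33 to 65 for CpG, 24 to 50 for LPS, 28 to 50 for polyI:C, 9 to 20 for TNF, 16 to 48 for CpG then LPS, 27 to 67 for polyI:C then LPS, 17 to 37 for CpG then TNF, 36 to 81 for polyI:C then TNF, 2 to 20 for CpG against LPS, 9 to 31 for polyI:C against LPS, 2 to 18 for LPS against TNF, 1 to 5 for the CpG difference and 0 to 1 for the polyI:C difference. The libraries that moved a count by over 1.5 times were CpG 1 for CpG (33), LPS 2 for LPS (24), any of its 4 for CpG then LPS (16 to 22) and for polyI:C then LPS (27 to 31), CpG then TNF 2 (17) and TNF 1 (18) for CpG then TNF, and TNF 1 (36) and polyI:C then TNF 2 (42) for polyI:C then TNF. Without library 1 or 2 of polyI:C then TNF, TNF gave 20 and 20. For CpG against LPS they were CpG 1 (2), LPS 1 and 2 (5 and 5) and polyI:C then TNF 1 and 2 (20 and 19); for polyI:C against LPS, LPS 1 and 2 (11 and 9) and polyI:C then TNF 1 and 2 (31 and 31); for LPS against TNF, each of the 4 LPS and TNF libraries and of the 4 libraries of CpG then LPS and polyI:C then LPS (2 to 3) and polyI:C then TNF 1 and 2 (17 and 18); and for the CpG difference, TNF 1 (2) and polyI:C then TNF 1 and 2 (4 and 5). The polyI:C difference rose to 1 without polyI:C then TNF 1.

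Replicate numbers did not pair the libraries: same-numbered deviations correlated from −0.358 to 0.242 over 28 pairs of groups, with 5 over 0.1. A replicate block gave 45 for polyI:C against LPS and moved no other count by over 1.5 times. The depth limits calls at low regions, where a median of 8 reads was reached. A count model on whole reads with edgeR was not run, and voom stood in for it.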
